A study of Mus musculus with 6 samples.

Results

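The genes described here make cholesterol and keep its level in the cell under control. They are 30 genes, chosen by symbol from the 53735 in the table: 18 enzymes of the path from acetyl-CoA to cholesterol, 4 genes of SREBP2 control, 3 of LXR control and 5 of sterol transport and storage. All 30 symbols had a row, and 29 averaged 10 or more normalized counts across the 6 libraries and were tested. A normalized count is a gene's number of reads after each library is scaled to a common depth. The libraries hold RNA of mouse leukemia stem cells, the fraction of a leukemia that can regrow it, with 3 libraries from liver and 3 from bone marrow. All mice were labelled C57, male and untreated, and were sampled on day 13 after receiving leukemia cells. The labels name neither the genetic driver of the leukemia nor the markers used to isolate the cells.

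Cholesterol is built from acetyl-CoA through mevalonate, isoprenoid units, squalene and lanosterol, and the last steps reshape the sterol ring system. When membranes of the endoplasmic reticulum are poor in sterol, SCAP carries the membrane-bound transcription factor SREBP2 to the Golgi, where it is cut free to switch on the enzymes of this path. When sterol is plentiful, INSIG proteins hold SCAP back, and oxidised sterols activate the LXR receptors, which promote export and lower uptake of cholesterol. Blood-forming cells use the path for membranes and for isoprenoids that anchor signalling proteins.

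Depth was 9.73 to 13.8 M reads in the liver libraries and 15.4 to 18.5 M in the bone marrow libraries. Replicates 1 to 3 of each tissue are labelled as technical and no separate animals are named, so p-values here reflect only library-to-library spread. How much of that spread is technical is not known. Libraries of a tissue were nonetheless unlike in sex-linked RNA, against their label of male: Xist stood at 6229 normalized counts in liver replicate 1 and 4860 in bone marrow replicate 1, against 1.42 in liver replicate 2 and 4.28 in bone marrow replicate 2. Replicates 3 held 2425 in liver and 2486 in bone marrow. All 12 listed stem and progenitor genes were measured, with a summed level of 25312 to 28919 normalized counts in liver and 30073 to 30951 in bone marrow. Gata2 was the largest part of that sum, at 10349 to 13513 in liver and 13502 to 14674 in bone marrow. Of the 12 genes 6 were lower and 6 higher in liver, with a median log2 difference of 0.003, and 0 passed. Of the defining hepatocyte genes, Alb, Ttr, Serpina1a, Serpina1b, Fgb, Fga and Cps1 had 0 reads in every library, while Apoa1 alone, at 2285 to 3003 normalized counts in liver and 2645 to 5659 in bone marrow, made up nearly all of that list's sum of 2303 to 3018 in liver and 2667.5 to 5663.5 in bone marrow. Also at 0 were the Kupffer cell genes Clec4f, Vsig4 and Cd5l. The 11 neutrophil genes summed to between 945.5 and 5993 in liver and between 410 and 658 in bone marrow, lowest in replicate 1 of each tissue and highest in replicate 2 of each, with 2 genes higher in liver past the threshold. The 9 basophil and mast cell genes summed to 8249 to 14944 in liver and 13729 to 18572 in bone marrow. Of these genes 7 were lower and 2 higher in liver, with a median log2 difference of liver minus bone marrow of -1.86. Prss34 passed as higher in liver (1243 to 3701 in liver and 192 to 235 in bone marrow). Tpsb2 passed as lower (0 to 1.2 in liver and 61.05 to 175 in bone marrow). The 9 erythroid genes summed to 5584 to 5983 in liver and 7826 to 8210 in bone marrow, and 0 passed. The macrophage list summed to 305 to 621 in liver and 536 to 679 in bone marrow. Most of this was Adgre1 (167 to 446 in liver, 338 to 503.5 in bone marrow) and Csf1r (95.1 to 163, 159 to 180). The liver endothelium and stellate list summed to 632 to 1984 in liver and 551 to 1255 in bone marrow. Nearly all of that was Pecam1 (430 to 1393 in liver, 343 to 1076 in bone marrow) and Fcgr2b (197 to 587, 150 to 208). Cdh5, Reln and Lrat had 0 reads in every library, and 0 genes passed in either list. In the lymphoid list Cd3e, Cd4, Ms4a1 and Ncr1 were at 0, and Nkg7 alone, at 11431 to 11742 in liver and 10335 to 11140 in bone marrow, made up nearly all of the sum of 11437 to 11746 in liver and 10340 to 11144 in bone marrow. The part of these cells in the results below was not tested.

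All 18 enzymes were detected in every library of both tissues. To compare genes with each other, levels were divided by the length of each gene's exons in kilobases (GENCODE M21, GRCm38). That length joins all annotated exons of all transcripts of a gene, and can exceed the length of the transcript in use. The order of genes and the percentiles below therefore hold for this length only, and which transcripts were in use was not tested. Nr1h2, which encodes LXR-beta, the LXR receptor found in most cells, had the highest mean level of the 30 per kilobase, 373 ± 14.5 normalized counts per kb in liver and 404 ± 11.5 in bone marrow (SD, n = 3 each). Ebp, the sterol isomerase gene, followed with 340 ± 47.4 in liver and 334 ± 11.4 in bone marrow, and Srebf2, the gene of SREBP2, with 322 ± 16.1 and 346 ± 9.31 per kb. Osbp, a lipid exchanger between the endoplasmic reticulum and the Golgi, stood at 319 ± 35.5 per kb in liver and 323 ± 1.55 in bone marrow. In liver the SDs of Ebp overlapped those of Nr1h2, Srebf2 and Osbp, and those of Srebf2 overlapped those of Osbp, so the place of Ebp among the 4 and the order of Srebf2 and Osbp are not settled there. In bone marrow Nr1h2 lay above the other 3 beyond the SDs, while the SDs of Ebp overlapped those of Srebf2 and Osbp. These 4 genes stood between percentiles 78.5 and 81.9 of the tested genes with a known exon length.

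At the low end Npc1, Soat1, Hsd17b7 and Tm7sf2 stood between 19.6 and 23.6 normalized counts per kb in liver and between 20.1 and 27.4 in bone marrow. Fdps, the farnesyl diphosphate synthase gene, was lower still at 11.4 ± 0.735 per kb in liver and 9.51 ± 1.28 in bone marrow, although it stands in the same chain of reactions as its neighbours Idi1 (113 and 103) and Fdft1 (82.5 and 89.8). Its value is uncertain, because 26.2% of its 50-base words also occur in other annotated genes, Gm43738 first among them, and reads that match several places may not have been counted. The same holds for Acat2, with 39.1% of such words shared mainly with Acat3, for Fdft1 with 26.5%, mainly with its neighbour Ctsb, and for Idi1 with 25.3%. In the other 26 genes the share was at most 11.6%.

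Nr1h3, the gene of LXR-alpha, which is high in macrophages and hepatocytes, was the 1 member too low to test. It had 4.94, 8.53 and 6.02 normalized counts in liver replicates 1, 2 and 3, against 0, 3.43 and 2.97 in bone marrow. The liver libraries lay above the bone marrow libraries, with 16 reads summed in liver against 8 in bone marrow. The ratio of liver to bone marrow was 2.85, with a 95% counting interval of 1.15 to 7.69 that covers counting error only. Per kilobase Nr1h3 stood at 2.58 in liver and 0.85 in bone marrow, far under the Nr1h2 levels given above.

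**Figure D1:**
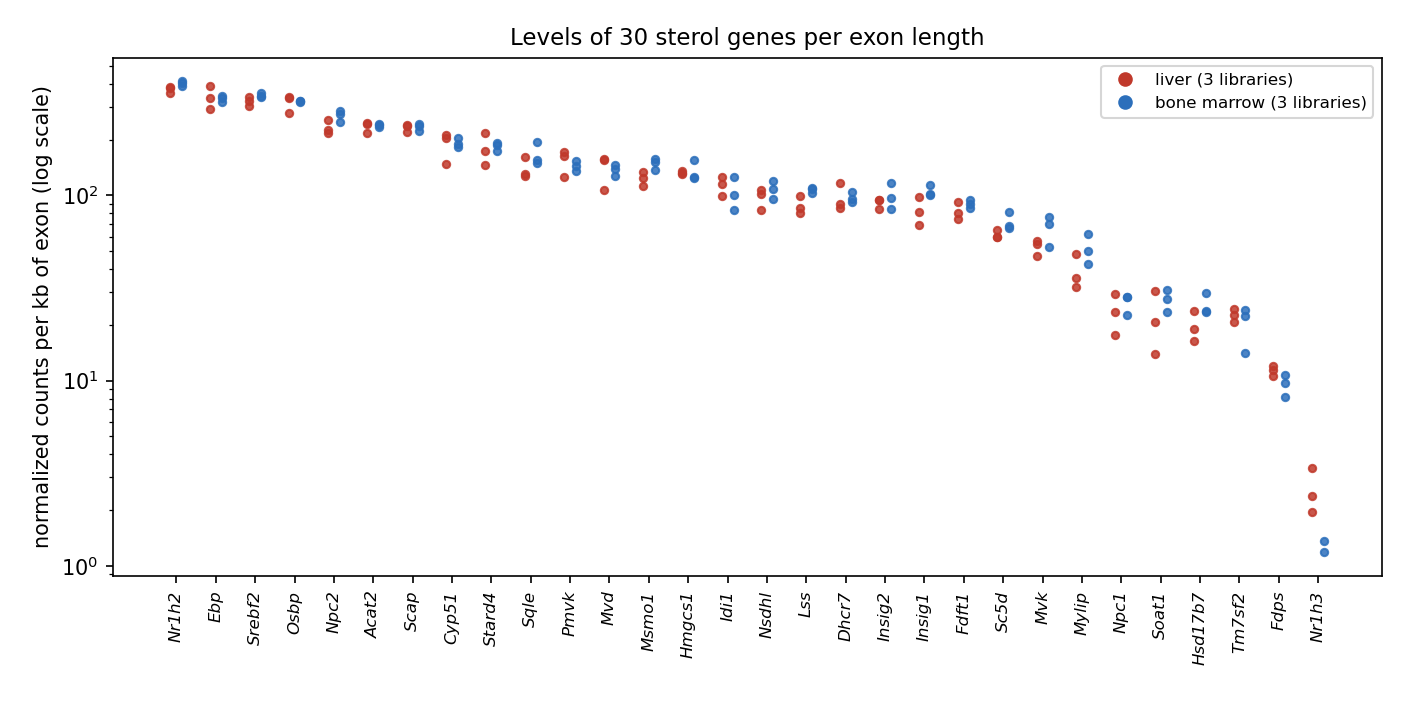
Normalized counts per kilobase of exon (log scale) for the 30 sterol genes, ordered by their mean over the 6 libraries. Each point is 1 library, liver on the left and bone marrow on the right of each gene; the bone marrow replicate 1 value of Nr1h3 is 0 and cannot be drawn. Levels span from Nr1h2 at 373 per kb in liver and 404 in bone marrow down to Fdps at 11.4 and 9.51 and to Nr1h3.

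Liver was set against bone marrow to ask whether leukemia stem cells carry these transcripts at different levels in the 2 tissues. No member passed. Of the 29 tested, 0 differed at an adjusted p under 0.05 (limma on log2(normalized count + 1), Benjamini-Hochberg over 14298 genes), where 1.01% of all genes did, and the smallest adjusted p was 0.20, for Lss. At an unadjusted p under 0.05 there were 4 members of 29, all with lower values in liver, beside 15.7% of all genes. DESeq2 and edgeR on whole reads recovered from the table also called 0 of 29, with 2 and 4 at an unadjusted p under 0.05. The count of 4 was 0 without bone marrow replicate 1, and 0 without both replicate 3 libraries. It was 1 without bone marrow replicate 3 alone and 2 without liver replicate 3 alone. It was 4 without liver replicate 1 or bone marrow replicate 2, and 5 without liver replicate 2 or with the replicate number as a block. In bulk RNA, fewer cells of a type and less RNA per cell cannot be told apart.

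The differences were small. The log2 difference of liver minus bone marrow, on the scale of log2(normalized count + 1), ran from -0.41 for Mylip to 0.26 for Fdps. It was negative for 24 members (21 to 24 with 1 library left out) and positive for 5, with a median of -0.11, beside a median of -0.01 and 51.6% negative over all genes tested. Without single libraries the median stayed between -0.14 and -0.08. The 95% interval lay within 1 log2 unit of 0, a 2-fold difference either way, for 28 of the 29, beside 74.5% of all genes. Soat1 was the 1 member whose interval reached beyond 1 log2 unit, at -1.04 to 0.25. In 6 members every liver library lay below every bone marrow library, namely Lss, Msmo1, Sc5d, Srebf2, Insig1 and Nr1h2, which is 6 of 29 beside 10.9% of all genes. No tested member lay wholly above, beside 11.4%.

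**Figure D2:**
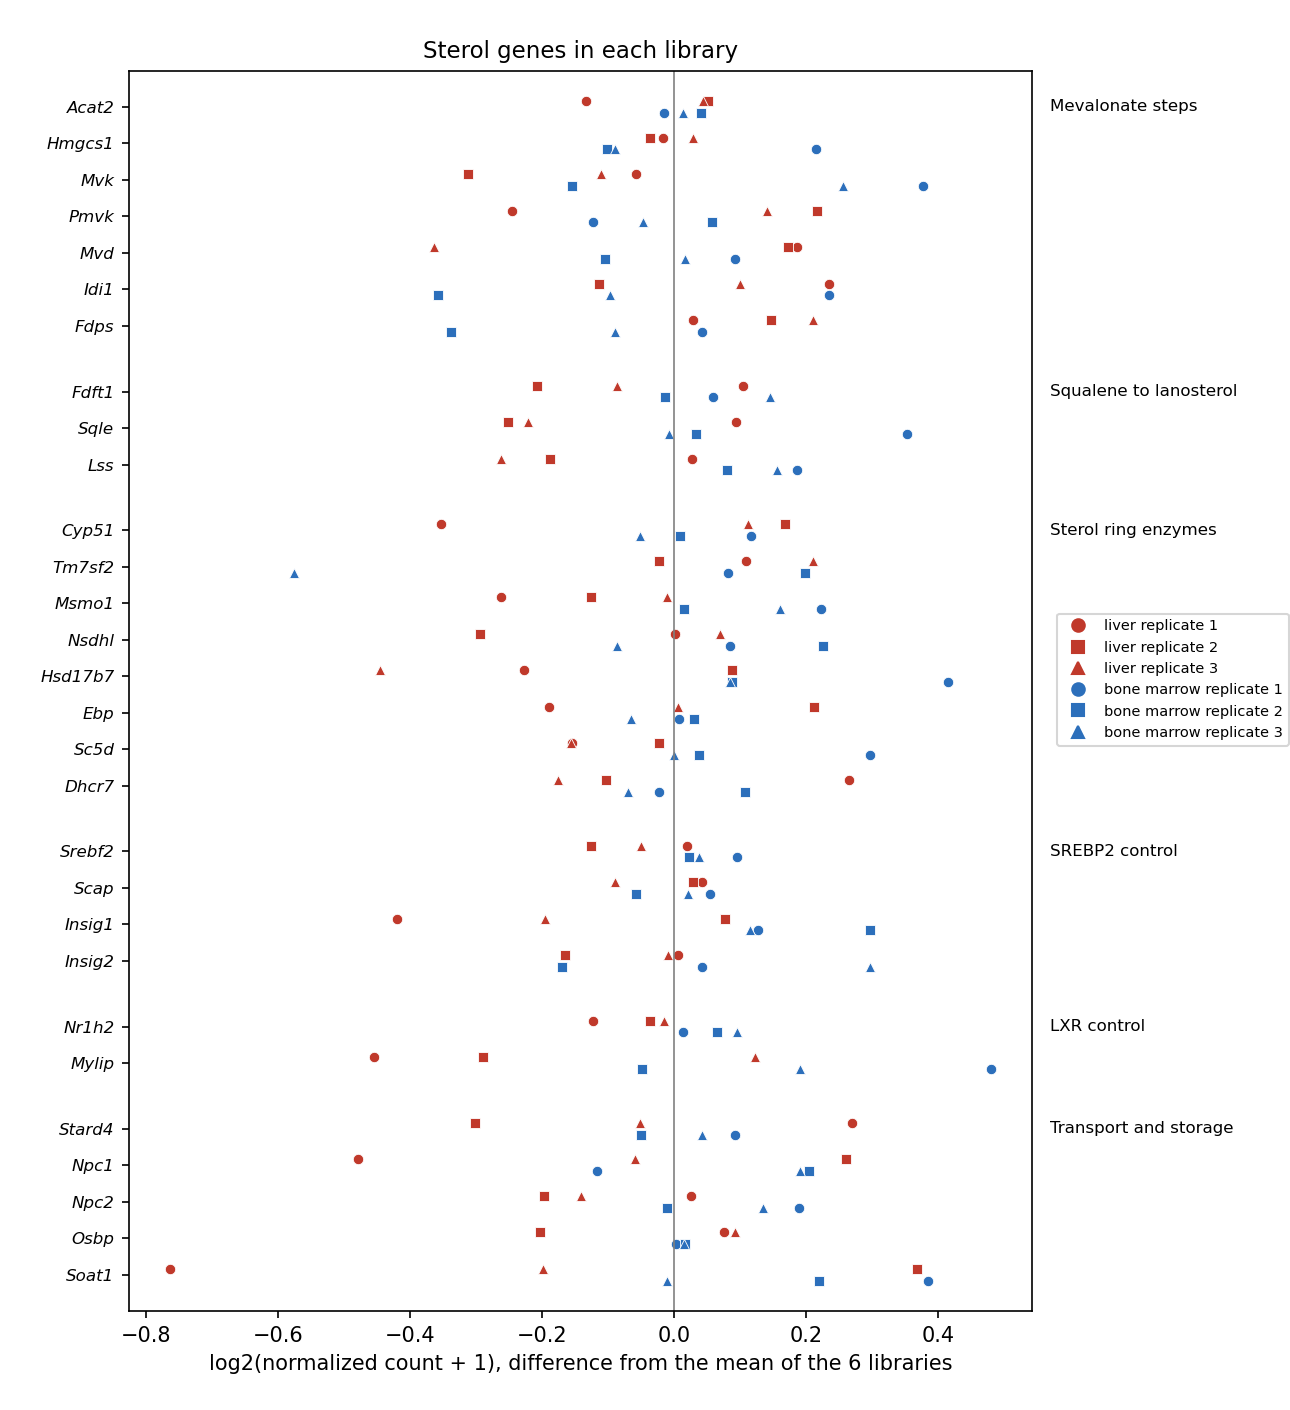
The 29 tested sterol genes in each of the 6 libraries, as the difference of log2(normalized count + 1) from the gene's mean over the libraries. Liver libraries are drawn in red above the bone marrow libraries in blue, and the symbol gives the replicate number. Most genes lie within 0.5 log2 units of their mean and the tissues overlap in 23 of 29; Soat1 in liver replicate 1 and Tm7sf2 in bone marrow replicate 3 lie farthest below it.

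Libraries of the same tissue differed among themselves. Bone marrow replicate 1 was the highest of the 6 libraries in 13 of the 29 members and the lowest in 0. Liver replicate 1 was the lowest in 10, liver replicate 2 in 8 and liver replicate 3 in 6. The spread between libraries of a tissue had a median coefficient of variation of 11.1% in liver and 7.21% in bone marrow over the members, against a mean counting error of 5.53% and 4.69% (medians over the members). By these medians the spread was larger than the counting error in both tissues, but not in every member. For Hmgcs1 in liver the spread was 2.34% against a counting error of 4.43%. For Osbp in bone marrow it was 0.48% against 2.39%.

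Among the mevalonate steps 0 of 7 passed, 4 had negative and 3 positive differences, and the median was 0.00. Hmgcs1, which makes HMG-CoA and is a classic SREBP2 target, held 607, 598 and 626 normalized counts in liver, against 712, 572 and 576 in bone marrow. Its liver values lay inside the bone marrow range, with a log2 difference of -0.02 and a 95% interval of -0.26 to 0.23. Acat2, which joins acetyl-CoA units at the entry to the path, differed by -0.03 (-0.23 to 0.18), although its counts are uncertain as given above. The kinases of mevalonate and phosphomevalonate leaned opposite ways without passing, Mvk at -0.32 (-0.75 to 0.11) and Pmvk at 0.08 (-0.28 to 0.43). Mvd, the decarboxylase, stood at 0.00 (-0.41 to 0.40), Idi1, the isopentenyl diphosphate isomerase, at 0.15 (-0.25 to 0.54), and Fdps at 0.26 (-0.30 to 0.81). The sign turned in 7 of 16 alternatives for Mvd and in 1 each for Acat2 (0.035, without liver replicate 1), Pmvk (-0.014, without liver replicate 2) and Hmgcs1 (0.088, without bone marrow replicate 1).

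The 3 genes from farnesyl diphosphate to lanosterol all had negative differences, with a median of -0.25, and 0 passed. Lss, lanosterol synthase, which folds squalene epoxide into the first sterol, held 1066, 918 and 872 normalized counts in liver, against 1190.5, 1106 and 1166 in bone marrow. All 3 liver libraries lay below the lowest bone marrow library. The log2 difference was -0.28 ± 0.091 (SE), with an adjusted p of 0.20, and the adjusted p ran from 0.052, without liver replicate 1, to 0.88 over the alternatives. The gene (chr10, 76531588 to 76557138, plus strand, GRCm38) shares 3.53% of its exon bases with 4930483K19Rik.

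Sqle, squalene epoxidase, a rate-limiting step, held 896, 705 and 720.1 in liver, against 1073, 859 and 835 in bone marrow. The ranges overlapped, because liver replicate 1 exceeded bone marrow replicates 2 and 3, and the log2 difference was -0.25 (95% interval -0.56 to 0.06, adjusted p = 0.43). Fdft1, squalene synthase, differed by -0.13 (-0.40 to 0.14).

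Of the 8 enzymes that reshape the sterol ring system 0 passed, 6 had negative and 2 positive differences, and the median was -0.10. Msmo1, the C4-methyl sterol oxidase, held 692, 760.4 and 824 normalized counts in liver, against 969, 838 and 928 in bone marrow. The tissues did not overlap, by a gap between liver replicate 3 and bone marrow replicate 2 that is small beside the spread within either tissue. The log2 difference was -0.27 ± 0.096 (SE, adjusted p = 0.25); Msmo1 is at chr8, 64718139 to 64733792, minus strand.

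Sc5d, the lathosterol desaturase, did not overlap either, with 290.5, 318 and 290.2 in liver, against 398, 332 and 323 in bone marrow, and its log2 difference was -0.22 (-0.50 to 0.06, adjusted p = 0.44). Hsd17b7, a 3-ketosterol reductase, held 96.8, 121 and 83.1 in liver, against 152, 121 and 120.5 in bone marrow. Liver replicate 2 lay among the bone marrow values, and the log2 difference was -0.39 (-0.86 to 0.08, adjusted p = 0.42). Its partner in removing the C4-methyl groups, Nsdhl, differed by -0.15 (-0.48 to 0.19).

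The other 4 ring enzymes differed by at most 0.20 log2 units. Cyp51, the lanosterol demethylase, stood at -0.05 (-0.38 to 0.28), with liver replicate 1 at 652 normalized counts beside 937 and 901 in the other liver libraries, and at 0.116 without liver replicate 1. Ebp stood at 0.02 (-0.24 to 0.28) and Dhcr7, which makes cholesterol from its immediate precursor, at -0.01 (-0.32 to 0.30). Tm7sf2, a sterol C14-reductase, stood at 0.20 (-0.37 to 0.77), on a bone marrow replicate 3 value of 61.7 beside 97.9 and 106 in the other bone marrow libraries. The sign turned in 4 of 16 alternatives for Ebp, in 7 for Dhcr7 and in 3 for Tm7sf2.

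The 4 genes of SREBP2 control all had negative differences, with a median of -0.11 and 0 passing. Srebf2 held 2430, 2199 and 2316 normalized counts in liver, against 2563, 2437 and 2462 in bone marrow. The tissues did not overlap, though liver replicate 1 came close to bone marrow replicate 2. The log2 difference was -0.10 (95% interval -0.24 to 0.04, adjusted p = 0.46), and Srebf2 is at chr15, 82147181 to 82205379, plus strand. Scap, its escort, stood at -0.01 (-0.17 to 0.14), and its sign turned in 4 of 16 alternatives. Among these it stood at 0.03 without liver replicate 3, 0.012 without bone marrow replicate 1 and 0.037 without both replicate 3 libraries.

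Insig1, the INSIG gene that SREBP2 itself switches on, held 215, 304 and 252 normalized counts in liver, against 315, 354.5 and 312 in bone marrow. The tissues did not overlap, and liver replicate 1 was the lowest library. Its log2 difference was -0.36 ± 0.15 (SE), with a 95% interval of -0.71 to -0.01 and an adjusted p of 0.31, which ran from 0.18 to 0.88 over the alternatives. Insig1 is at chr5, 28071363 to 28078662, plus strand. Insig2, whose protein has the same task but which is not a classic SREBP2 target, differed by -0.11 (-0.44 to 0.22), or by 0.007 without bone marrow replicate 3. Within a library the ratio of Insig1 to Insig2, which does not depend on scaling, was 0.653, 1.04 and 0.771 in liver, against 0.931, 1.21 and 0.773 in bone marrow, and the tissues overlapped.

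Of the LXR genes, Nr1h2 held 1195.5, 1269 and 1287 normalized counts in liver, against 1313.5, 1361.5 and 1390 in bone marrow. The tissues did not overlap, yet the log2 difference was only -0.12 (95% interval -0.27 to 0.03, adjusted p = 0.45). Mylip, an LXR target that marks lipoprotein receptors for degradation, held 104, 117 and 155 in liver, against 199, 138 and 163 in bone marrow. Liver replicate 3 lay above bone marrow replicate 2. Its log2 difference of -0.41 (-0.92 to 0.09, adjusted p = 0.42) was the most negative of the members and did not pass.

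The 5 transport and storage genes all had negative differences, with a median of -0.19, and 0 passed. Npc2, which lifts cholesterol out of lysosomal membranes, held 1384, 1185 and 1232 normalized counts in liver, against 1550, 1349 and 1492 in bone marrow. Liver replicate 1 lay above bone marrow replicate 2. The log2 difference was -0.21 ± 0.087 (SE), with a 95% interval of -0.41 to -0.01 and an adjusted p of 0.31; Npc2 is at chr12, 84754562 to 84773152, minus strand. Npc1, to which NPC2 hands the cholesterol, differed by -0.19 (-0.66 to 0.28).

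Soat1, which esterifies cholesterol for storage, had the widest spread of the tested members. It held 136, 299.9 and 202 normalized counts in liver, against 303, 271 and 230.5 in bone marrow, so that liver replicate 2 lay inside the bone marrow range while liver replicate 1 lay far below it. The log2 difference was -0.40 (-1.04 to 0.25, adjusted p = 0.55) and lay between -0.68 and -0.11 over the alternatives. The sterol carrier gene Stard4 at -0.06 (-0.38 to 0.27) and Osbp at -0.02 (-0.23 to 0.19) differed least. Leaving out 1 library turned the sign of 3 of the 5: Npc1 stood at 0.008 without liver replicate 1, and without liver replicate 2 Stard4 stood at 0.081 and Osbp at 0.073.

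**Figure D3:**
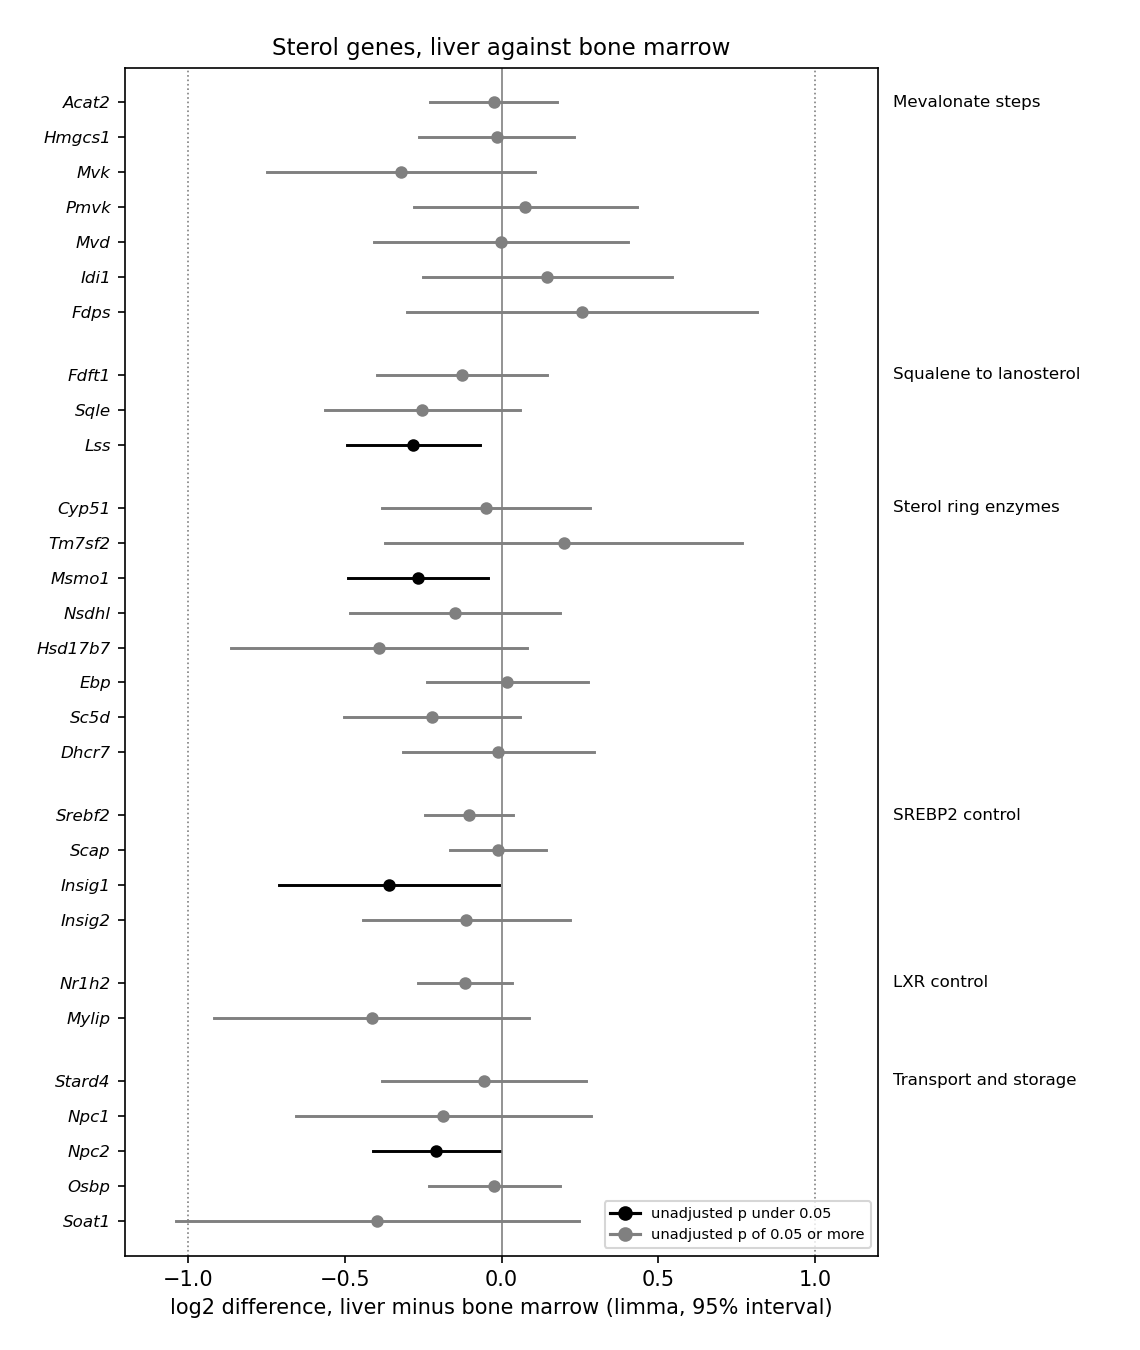
Log2 difference of liver minus bone marrow with its 95% interval (limma) for the 29 tested sterol genes, grouped by role; black marks an unadjusted p under 0.05, and dotted lines mark 1 log2 unit either way. The 4 black genes Lss, Msmo1, Insig1 and Npc2 have negative differences, none passed after adjustment, and the interval of Soat1 (-1.04 to 0.25) is the 1 that crosses a dotted line.

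SREBP2 and its cofactors bind close to the start of their target genes, and so the promoters of the 4 members with an unadjusted p under 0.05 are shown with that of Hmgcs1, whose level was nearly the same in both tissues. The sequences are from RefSeq (GRCm38.p6) and run from 250 bases before to 50 bases after the annotated start, in the direction of transcription. Capitals mark TCACNCCAC, the core of the sterol regulatory element, and CCAAT, the site of the cofactor NF-Y, each on either strand (CCAAT on the other strand reads ATTGG). The windows are chr13:119690101-119690400 (plus strand) for Hmgcs1, chr10:76531355-76531654 (plus) for Lss, chr8:64733529-64733828 (minus) for Msmo1, chr5:28071162-28071461 (plus) for Insig1 and chr12:84773063-84773362 (minus) for Npc2.
Hmgcs1: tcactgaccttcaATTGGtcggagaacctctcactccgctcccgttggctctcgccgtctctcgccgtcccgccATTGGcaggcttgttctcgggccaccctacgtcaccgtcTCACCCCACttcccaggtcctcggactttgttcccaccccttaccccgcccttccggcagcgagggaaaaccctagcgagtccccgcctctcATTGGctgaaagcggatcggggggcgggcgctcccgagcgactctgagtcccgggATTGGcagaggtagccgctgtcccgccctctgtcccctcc
Lss: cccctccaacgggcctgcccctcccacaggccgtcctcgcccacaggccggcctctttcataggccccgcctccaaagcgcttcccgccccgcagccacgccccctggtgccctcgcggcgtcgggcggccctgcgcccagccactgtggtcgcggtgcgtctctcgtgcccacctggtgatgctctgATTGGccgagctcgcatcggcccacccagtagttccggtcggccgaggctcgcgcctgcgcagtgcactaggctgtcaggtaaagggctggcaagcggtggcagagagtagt
Msmo1: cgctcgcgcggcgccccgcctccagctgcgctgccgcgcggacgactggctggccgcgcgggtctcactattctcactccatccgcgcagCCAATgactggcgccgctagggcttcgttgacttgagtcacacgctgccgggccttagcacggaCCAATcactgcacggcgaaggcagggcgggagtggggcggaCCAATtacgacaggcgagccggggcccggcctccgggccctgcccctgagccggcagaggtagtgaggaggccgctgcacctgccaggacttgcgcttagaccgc
Insig1: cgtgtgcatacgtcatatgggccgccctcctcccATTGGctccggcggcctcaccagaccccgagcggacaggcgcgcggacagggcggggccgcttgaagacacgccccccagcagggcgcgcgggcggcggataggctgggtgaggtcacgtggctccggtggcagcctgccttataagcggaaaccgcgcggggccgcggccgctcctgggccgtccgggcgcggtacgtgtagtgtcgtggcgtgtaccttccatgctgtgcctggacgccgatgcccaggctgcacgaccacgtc
Npc2: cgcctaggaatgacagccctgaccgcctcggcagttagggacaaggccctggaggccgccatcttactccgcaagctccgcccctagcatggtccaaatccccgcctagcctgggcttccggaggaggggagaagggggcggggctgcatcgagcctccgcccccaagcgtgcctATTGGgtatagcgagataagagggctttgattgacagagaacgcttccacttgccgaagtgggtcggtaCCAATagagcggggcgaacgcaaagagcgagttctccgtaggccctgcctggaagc

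Hmgcs1 held the sterol element 137 bases before its start. It was the 1 member of the 25 with a listed promoter to hold TCACNCCAC, which 1.24% of all 32851 listed promoters hold. Allowing any base at 1 more place (TCACNCNAC, which includes the first spelling) added Nsdhl, beside 2.7% of all promoters. CCAAT was found in 21 of the 25 members and in 21 of their 32 promoters (65.6%), beside 37.4% of all promoters. GGGCGG, the GC box bound by SP1, was found in 22 members and 25 promoters (78.1%), beside 35.7%, and no matches of different motifs overlapped in these windows. The 4 members with an unadjusted p under 0.05 all held CCAAT and the GC box, and so did Hmgcs1. Each motif was found in most of the 25 members, so these matches do not set the 4 apart. A match to these letters does not show binding, and the lack of a match in these windows does not show that a site is absent. Of the members, 5 had no listed promoter and were not searched.

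The replicate number is only a label here, but replicates 1 and 2 differ in sex-linked RNA in both tissues, and so replicate 1 was set against replicate 2 over both tissues, in a limma fit with tissue and number as terms. Of the 29 members 0 passed, where 4.01% of all genes did, and 5 had an unadjusted p under 0.05, beside 19.4% of all genes. The difference of replicate 1 minus replicate 2 was positive for 21 members and negative for 8, beside 50.3% positive over all genes. Its median was 0.106, beside 0.002 over all genes, so the members leaned to one side by number as well as by tissue.

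Sqle had the smallest p, with a log2 difference of replicate 1 minus replicate 2 of 0.33 ± 0.095 (SE, adjusted p = 0.11). Its replicate 1 libraries, at 896 in liver and 1073 in bone marrow, were the highest of their tissues. Idi1 held 442, 347 and 402 normalized counts in liver, against 442, 293 and 351 in bone marrow. Both tissues had their highest value in replicate 1 and their lowest in replicate 2, with a log2 difference of 0.47 ± 0.14 (adjusted p = 0.11).

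Npc1 and Stard4 leaned opposite ways. Npc1 held 199.6, 334 and 267 normalized counts in liver, against 257, 321 and 318 in bone marrow, lowest in replicate 1 and highest in replicate 2 of each tissue, with a log2 difference of -0.53 ± 0.17 (adjusted p = 0.13). Stard4 held 1218, 820.1 and 975 in liver, against 1077, 976 and 1040.2 in bone marrow, highest in replicate 1 and lowest in replicate 2 of each, with 0.36 ± 0.12 (adjusted p = 0.15). Npc2 was the fifth, at 0.21 ± 0.082 (adjusted p = 0.22), and Insig1 stood at -0.33 ± 0.16 (adjusted p = 0.30). The X-linked members Ebp and Nsdhl differed by -0.21 ± 0.12 and 0.08 ± 0.19 between replicates 1 and 2, and neither passed.

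**Figure D4:**
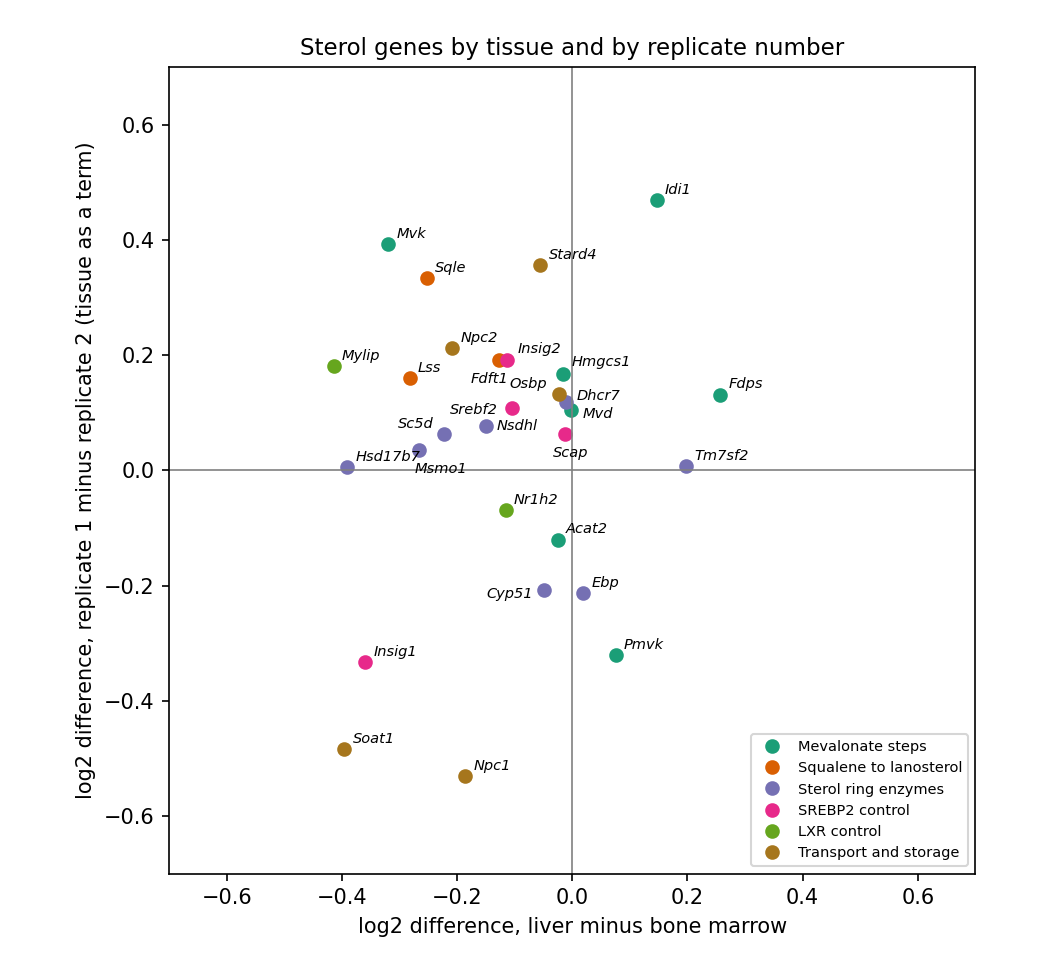
For each of the 29 tested sterol genes, the log2 difference of liver minus bone marrow (horizontal axis) and of replicate 1 minus replicate 2 with tissue as a term (vertical axis), coloured by role. Both axes share 1 scale, but the tissue axis compares 3 libraries with 3 and the number axis 2 with 2, so the spreads along them are not comparable. On the tissue axis 24 genes lie left of 0, beside 51.6% of all genes tested. On the number axis 21 lie above 0, beside 50.3%, and no gene passed in either comparison.

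Of 42 other listed genes of sterol handling, 40 matched a row and 38 were tested. None passed between tissues. Negative differences were found in 28 and positive ones in 10, beside 51.6% negative over all genes, and the median was -0.07, beside -0.01. An unadjusted p under 0.05 was found for 7 of the 38, beside 15.7% of all genes. Abca1, the LXR-driven exporter of cholesterol and the gene of smallest p, held 169, 188 and 176 normalized counts in liver, against 534, 230.3 and 509 in bone marrow. The tissues did not overlap, but bone marrow replicate 2 came close to the liver values, and the log2 difference was -1.16 ± 0.31 (SE, adjusted p = 0.14). Lbr, the lamin B receptor, which also acts as a sterol C14-reductase like Tm7sf2, held 4751, 5579 and 5124 in liver, against 4513, 4108 and 4268 in bone marrow, all liver values being higher (0.26 ± 0.071, adjusted p = 0.15). Osbpl2, a relative of Osbp, stood at -0.25 ± 0.078 (adjusted p = 0.20). Between replicates 1 and 2 of both tissues 4 of the 38 passed, beside 4.01% of all genes, with Nus1 (log2 difference 0.51) and Erlin1 (0.50) higher in replicate 1 and Rxra (-1.99) and Cyp27a1 lower. Cyp27a1, a sterol hydroxylase gene, had 0 normalized counts in replicate 1 of both tissues, and 12.8 in liver and 62.5 in bone marrow in replicate 2.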

How the data were processed

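Libraries came from column-purified RNA by a low-input cDNA kit and tagmentation, per the labels' protocols. Tools named in the submitters' processing notes are STAR 2.6.0c, DESeq2 1.16.1 under R 3.4.1, Trimmomatic 0.36 and bcl2fastq 2.19.0. What build, annotation and counting program were used is not given in the sources used. Each deposited value is a signal: reads of a gene scaled by the authors with a single factor for the library, per the table's name and those notes. In each library 100% of values were whole multiples of the smallest value (tolerance 0.01), so whole reads could be recovered.

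From these values log2(normalized count + 1) was fitted across all 14298 genes with a mean of at least 10, with limma 3.58.1 (R 4.3.3), tissue as the term and a trend in the variance; tests were two-sided, with Benjamini-Hochberg adjustment. Fold changes on this scale understate the change of low genes. An adjusted p under 0.05 counted as passing, and 95% intervals are per gene. A second fit had tissue and replicate number as terms. Alternatives changed the scaling (TMM), the pseudocount (0.5 or 10), the filter (none, or a mean of 50), the tool (edgeR 4.0.16 or DESeq2 1.42.0, both on recovered reads), the terms (a block for the replicate number) or the libraries (1 left out, or both replicate 3). The fits were tested on simulated data. The members and lists were chosen with earlier results of these data known. All 30 members are named, with every library's value for those of smallest p or with no overlap. Of the other sterol genes, 3 of the 4 of smallest p and those passing are given, and 1 is not reported here. Exon lengths and shared 50-base words are from GENCODE M21, not necessarily the authors' annotation, and 11670 of the tested genes (81.6%) had a length. Figures were drawn with matplotlib 3.10.9.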

Additional observations from a re-analysis of the deposited data

How the results depend on the processing

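No member passed in any of the 16 alternatives to the tissue comparison or the 8 to the comparison of replicate numbers, and the lowest adjusted p was 0.052, for Lss without liver replicate 1. The sign of the tissue difference was kept throughout by 16 of the 29 members and turned in at least 1 alternative for 13. The median of the members ran from -0.14 to -0.082 with 1 library left out. The count of all genes passing between tissues, 145, was 622 with DESeq2, 525 with the replicate block, 6 to 433 with 1 library left out, 2 without both replicate 3 libraries and 16 with both of the last changes (a block and no replicate 3), the last chosen after seeing the data. Between replicates 1 and 2, where 574 passed, it was 1042 with no filter and 84 without both replicate 3 libraries. The causes were not tested. The replicate number is not known to pair the samples. Deviations from the tissue means correlated across genes at 0.44, 0.40 and 0.06 for numbers 1, 2 and 3. Liver replicate 3 correlated best with bone marrow replicate 2 (0.15). In Xist and Y-linked RNA, libraries of the same number were alike in the 2 tissues, with replicates 3 between replicates 1 and 2. Whether libraries of the same number share a source was not tested. With the replicate block 0 members passed, the smallest adjusted p being 0.11 (Lss). Counting error was largest for Fdps among the tested members, with 121 reads over the 3 liver libraries and 145 over the 3 bone marrow libraries.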
